A study of Mus musculus with 29 samples.

Results

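The core splicing factor families are the genes that build, guide or modulate the spliceosome, the machine that removes introns from pre-mRNA. They were taken as all genes whose annotated symbol starts with Srsf or Sfrs (SR proteins), Sf3 (SF3 complexes), Hnrnp or Hnrp (hnRNPs), Snrp (snRNP proteins), or Rbm followed by a digit or x (RBM proteins), with at least 1 probe detected at a p-value under 0.01 on at least 1 array. Of 81 such genes on the array, 70 had a detected probe, among 10768 genes with a detected probe in all. These 70 members were 9 SR proteins, 8 genes of the SF3 complexes, 16 hnRNPs, 9 snRNP proteins and 28 RBM proteins. The other 11 genes (Hnrnpd, Hnrnpr, Rbm12b1, Rbm25, Rbm34, Rbm7, Rbmxl1, Rbmxl2, Sf3a2, Snrpb2 and Snrpe) were detected on no array.

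The 29 prostates profiled came from 29 mice and were hybridized to Illumina MouseRef-8 v2.0 BeadChips. Single mice are named by their labels, such as OPT18_1333. All mice carried the TRAMP transgene, in which the probasin promoter drives viral T antigens in prostate epithelium, so no group is free of the oncogene. TRAMP mice (strain C57BL/6-tgN (TRAMP)8247Ng) were 18 wks old without palpable tumor (T18, 4 mice) or 30 wks old with palpable adenocarcinoma (T30, 4 mice). OPN-/-TRAMP mice, which also lack osteopontin through the Spp1<tm1Blh> allele, were 15 wks old (OPT15, 5 mice) or 18 wks old (OPT18, 13 mice) without palpable tumor, or 18 wks old with a palpable neuroendocrine (NE) tumor (OPT-tm, 3 mice). The labels class the prostates without palpable tumor as Reliquia (here Early-ADC) or Ineuntes (here Early-NE). Early-NE were 4 OPT18 and 1 OPT15 prostates, Early-ADC 9 OPT18 and 4 OPT15 prostates, and the T18 prostates also carry the Reliquia label. The study made these classes by clustering the same arrays, so they are described with no test. Whole prostates were used, in which fewer cells of a type and less RNA per cell cannot be told apart.

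Splicing is carried out by small nuclear ribonucleoproteins. In these, the Sm proteins form a ring on the small nuclear RNA and other proteins, such as those of SF3a and SF3b in the U2 particle, help to select the branch point. SR proteins bind exons and generally favor their inclusion, whereas hnRNPs coat pre-mRNA and often oppose them, so that the balance of both shapes alternative splicing. Many RBM proteins act in the same process and others in mRNA stability, export or editing. In human prostate cancer, NE and adenocarcinoma cells are known to use different exons in many transcripts.

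The 4 SR protein genes with the largest differences between the tumors (below) are shown with the 250 bases before 1 annotated transcription start each, from RefSeq on GRCm38.p6. Only the Srsf3 window lies wholly before its annotated gene (from 29032660). The windows of Srsf2 (gene to 116853675) and Srsf12 (gene from 33208991) lie inside the gene, and that of Srsf4 (gene from 131873530) partly so. For Srsf2 and Srsf12 the sequence before the outermost start is thus not shown, and for Srsf4 only part of the window lies before it. The bases are written in lower case, 5′ to 3′ on the strand of the gene, with CCAAT and TATAAA, searched on both strands, in capitals.
Srsf2 (chr11:116853095-116853344, minus strand): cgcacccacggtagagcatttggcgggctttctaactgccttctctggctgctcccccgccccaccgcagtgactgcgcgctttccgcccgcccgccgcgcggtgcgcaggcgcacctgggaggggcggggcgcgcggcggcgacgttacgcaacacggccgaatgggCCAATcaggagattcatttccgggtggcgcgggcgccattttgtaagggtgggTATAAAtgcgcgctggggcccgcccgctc
Srsf3 (chr17:29032410-29032659, plus strand): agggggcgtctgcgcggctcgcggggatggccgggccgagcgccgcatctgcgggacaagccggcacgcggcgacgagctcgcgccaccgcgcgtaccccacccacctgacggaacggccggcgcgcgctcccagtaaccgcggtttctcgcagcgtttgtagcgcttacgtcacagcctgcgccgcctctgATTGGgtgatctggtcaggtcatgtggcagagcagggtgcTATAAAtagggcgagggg
Srsf4 (chr4:131873387-131873636, plus strand): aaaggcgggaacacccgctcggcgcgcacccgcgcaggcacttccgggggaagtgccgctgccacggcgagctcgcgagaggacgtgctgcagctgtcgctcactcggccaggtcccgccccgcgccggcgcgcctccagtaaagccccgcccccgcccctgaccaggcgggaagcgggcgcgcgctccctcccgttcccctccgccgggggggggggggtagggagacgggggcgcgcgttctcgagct
Srsf12 (chr4:33209022-33209271, plus strand): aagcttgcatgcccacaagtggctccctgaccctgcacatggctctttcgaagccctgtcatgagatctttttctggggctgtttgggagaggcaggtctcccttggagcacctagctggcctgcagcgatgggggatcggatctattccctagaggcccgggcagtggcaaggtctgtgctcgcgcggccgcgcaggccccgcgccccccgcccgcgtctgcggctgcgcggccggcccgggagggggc

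The windows of Srsf2 and Srsf3 each held 1 CCAAT box and 1 TATAAA box, the latter at −29 and −18 from the start used. Those of Srsf4 and Srsf12 held neither. All 4 windows were rich in G and C (68.0% to 77.2%). Promoters of 61 of the 70 members were in the table. Among them CCAAT was found in 50.8%, against 40.7% of the 8662 tested genes with a promoter, and TATAAA in 16.4% against 8.83%. Of 6 motifs searched on both strands, GGGCGG was in 57.4% of the members (61.7% of all genes), CCGGAAGT in 11.5% (6.06%), TTTCCCGC in 4.92% (1.73%) and CGCGAGA in 13.1% (4.71%). The CGCGAGA box was found in 4 of the 28 members with a promoter that rose in OPT-tm against T30 and in 4 of the 33 others, and TATAAA in 6 and 4. The motifs were chosen after others had been looked at, and a match to these letters is a description of the window.

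Signals are given as log2 of the quantile normalized intensity. Of the 70 members, 51 were detected on all 29 arrays, 10 on fewer than 15 arrays, and 2 on no OPT-tm and 9 on no T30 array. The 3 members Srsf12, Rbmx2 and Rbm12b2 were detected only in OPT-tm or Early-NE prostates and passed the filter through them. Srsf12 and Rbmx2 are counted below among the members that rose, and in the comparison of both genotypes. Srsf12 is also counted among the members at least 2-fold higher and among those with early ranges apart. The snRNP proteins were all detected throughout (9 of 9), as were 8 of 9 SR proteins, 12 of 16 hnRNPs, 5 of 8 genes of the SF3 complexes and 17 of 28 RBM proteins. Between 38.7% and 51.8% of probes were detected per array, with 47.1% to 51.8% on chips 1 and 2 and 38.7% to 41.9% on chips 3 and 4. One array of OPT-tm and one of T30 lay on each of chips 1 to 3, so the tumors were also compared within these chips. No 2 arrays held identical values. Loss of the Spp1 transcript was not checked, as the annotation used here pairs no probe with it. Precision is limited by how many arrays a group has.

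Each prostate was first summarized by the median, over the 70 members, of its difference from the T18 mean. The 3 OPT-tm prostates lay at 0.54 to 0.58 and stood above all 26 others. The T30 prostates ran from −0.04 to 0.17 and the T18 prostates from −0.05 to 0.02. The OPT18 Early-NE prostates lay at 0.09 to 0.25, above all 9 OPT18 Early-ADC prostates (−0.03 to 0.02) and all 4 OPT15 Early-ADC prostates (−0.07 to 0.05). Over all genes the same medians stayed between −0.06 and 0.02. The OPT-tm prostates were highest for the SR proteins (0.98 to 1.48) and lowest for the RBM proteins (0.16 to 0.35).

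**Figure D1:**
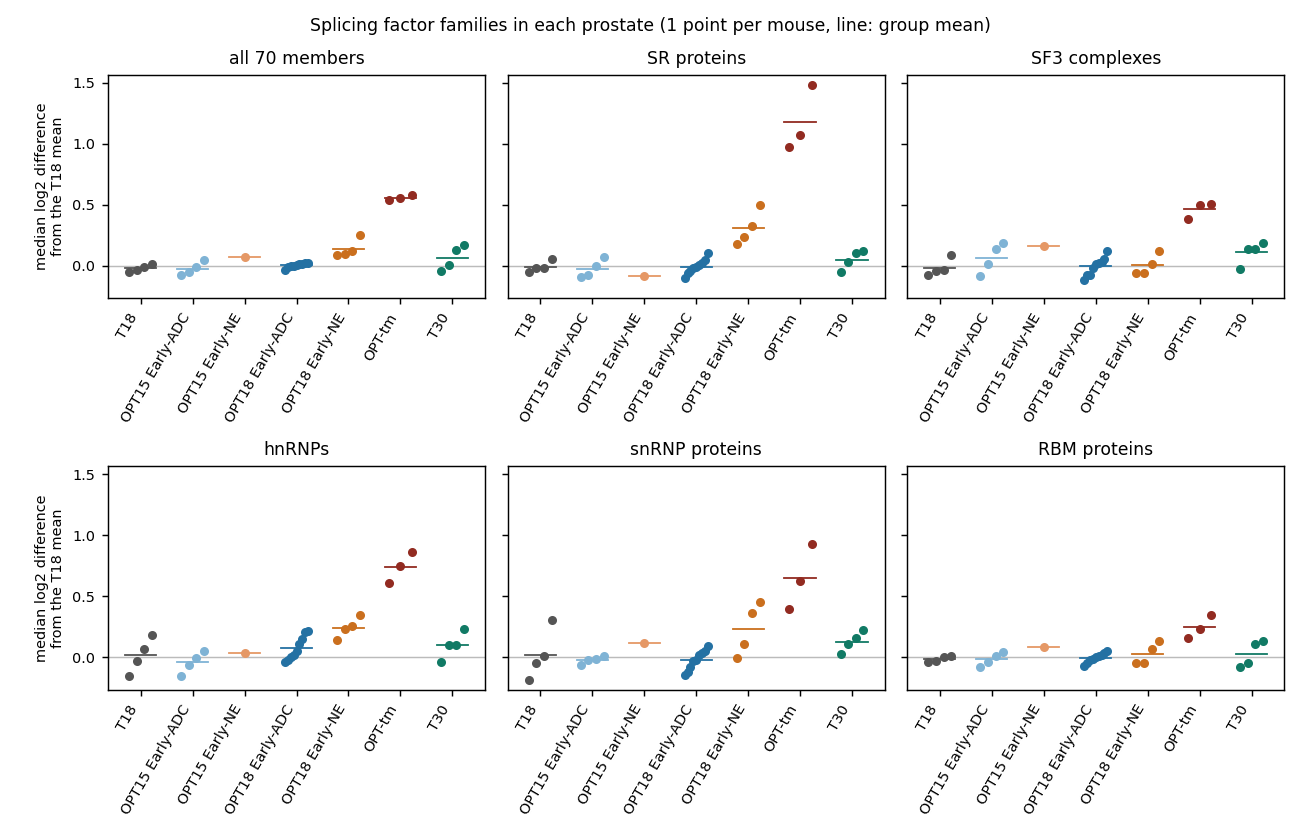
Median log2 difference from the T18 mean over all 70 members and over each family (vertical axis, log2 units), with 1 point per mouse, a line at the group mean and points of a group spread sideways in ascending order. The 3 OPT-tm prostates sit between 0.54 and 0.58 over all members, the OPT18 Early-NE prostates between 0.09 and 0.25, and the family panels differ in height.

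The comparison of OPT-tm with T30 asks how the 2 tumor histotypes differ, and here genotype and age differed together with histotype. Of the 70 members, 32 rose (45.7%) and 2 fell in OPT-tm at an adjusted p under 0.05 from limma, against 21.4% of all genes that rose and 21.7% that fell. With a fold change of at least 2, 12 rose and 1 fell, against backgrounds of 11.5% and 12.5%. The 12 include Srsf12 and Rbm11, both detected in no T30 prostate, and the lower bound for Srsf12 is under 2-fold. The median log2 difference was 0.51 over the members and −0.03 over all genes. With array medians set equal in place of quantile normalization, 19 rose, all of them among the 32, which was 27.1% of the members against 16.7% of all genes. Among the named members, the calls of Srsf1, Sf3a3, Hnrnpa1, Snrpa1, Snrpd3, Rbm3 and Rbm43 were lost with that scaling. All 32 members that rose had a positive difference within each of the 3 chips. These are the arrays that made the calls, so this is no separate support, and with chip fitted as a block fewer rose (closing section). By family, 77.8% of the SR proteins, 68.8% of the hnRNPs and 55.6% of the snRNP proteins rose. The SF3 complexes and the RBM proteins each had 25%, near the share of all genes. The 4 families other than the RBM proteins held no member that fell.

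Among the SR proteins 7 of 9 rose, 4 of them at least 2-fold, with a median of 0.78. The 4 include Srsf12, which was detected in no T30 prostate and whose lower bound is under 2-fold. Srsf4, the SR protein with a long arginine-serine tail, had signals of 13.70, 13.56 and 13.87 in OPT-tm and of 12.15, 12.04, 12.34 and 12.16 in T30. The groups did not overlap, and the log2 difference was 1.54 (standard error 0.15, adjusted p = 0.0001 from limma), with 1.52 to 1.55 within the 3 chips. Srsf2, a component of nuclear speckles that helps to define exons, was at 14.84, 14.92 and 14.81 in OPT-tm and at 13.58, 13.27, 13.67 and 13.57 in T30. All 3 NE tumors again lay above all 4 adenocarcinomas, by 1.34 (standard error 0.15, adjusted p = 0.000203 from limma). The other 2 detected probes of Srsf2 rose by 0.89 and 0.65, less than 2-fold, so the size depends on the probe. Srsf3, the smallest SR protein, which also links splicing to mRNA export, was at 12.11, 12.77 and 12.21 against 11.22, 11.17, 11.12 and 11.19 (log2 difference 1.19, standard error 0.18, adjusted p = 0.00112 from limma). Here OPT-tm mouse OPT18_1340 was the highest of the 3, while the T30 prostates lay close together.

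Srsf12, described in human cells as an antagonist of other SR proteins, was above background in each OPT-tm prostate (9.07, 9.67 and 9.38) but in no T30 prostate (7.97, 7.92, 7.71 and 7.85). It was at least 1.54-fold higher in OPT-tm (fitted log2 difference 1.51, standard error 0.17, adjusted p = 0.000243 from limma). Beyond the NE tumors it was detected on 1 array, of an OPT18 Early-NE prostate, so it passed the filter only through groups where it was high. Srsf1, the SR protein first found as an activator of constitutive splicing and as a switch between splice sites, was at 15.35, 15.42 and 15.61 against 15.00, 14.50, 14.57 and 14.66 (log2 difference 0.78, standard error 0.17, adjusted p = 0.00593 from limma). Its groups did not overlap, and the T30 mouse T30_6771 was the nearest to the NE tumors. Srsf10 (0.69) and Srsf6 (0.58) rose too, but the other 2 detected probes of Srsf10 had differences of 0.07 and 0.01 that did not pass. Srsf9 had a difference of 0.15 (adjusted p = 0.456 from limma), with signals of 13.43 to 13.79 in OPT-tm and 13.33 to 13.53 in T30.

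The SF3 complexes moved least apart from the RBM proteins, with 2 of 8 members that rose, none at least 2-fold, and a median of 0.24. Sf3a1, a subunit of SF3a, was at 13.06, 12.61 and 12.82 in OPT-tm and at 12.15, 11.96, 12.29 and 12.14 in T30 (log2 difference 0.69, standard error 0.16, adjusted p = 0.00873 from limma). Sf3a3, of the same subcomplex, was at 14.11, 13.93 and 13.90 against 13.55, 12.98, 13.23 and 13.50 (log2 difference 0.67, standard error 0.18, adjusted p = 0.0157 from limma). Both subunits were higher in every NE tumor than in any adenocarcinoma, while the call of Sf3a3 was lost without OPT-tm mouse OPT18_1333. Sf3b1, the largest subunit of SF3b, which touches the branch point region, was detected on 2 of the 29 arrays, 1 of them of OPT-tm and none of T30. Its difference of 0.25 did not pass (adjusted p = 0.219 from limma). Sf3b4, detected on 10 arrays, had a difference of −0.03 (adjusted p = 0.901 from limma). Its second probe, detected on 9 arrays, had 0.54 and passed (adjusted p = 0.0251 from limma over all detected probes), so the 2 probes differ in their call.

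Among the hnRNPs 11 of 16 rose, 4 at least 2-fold, with a median of 0.76. Hnrnph1, which binds runs of G, was at 14.56, 14.67 and 15.10 in OPT-tm and at 13.24, 13.19, 13.22 and 12.92 in T30. The gap between the groups was over 1 log2 unit, and the difference was 1.64 (standard error 0.18, adjusted p = 0.000182 from limma). All 5 of its detected probes rose, by 1.52 to 1.76. Hnrnpa2b1, an abundant binder of UAG-type sites that also acts in RNA transport, was at 14.79, 15.08 and 15.58 against 13.88, 13.41, 13.73 and 13.60 (log2 difference 1.50, standard error 0.21, adjusted p = 0.000765 from limma). OPT-tm mouse OPT18_1335 was the highest for both genes.

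Hnrnph3, a smaller relative of Hnrnph1, was at 10.19, 10.70 and 11.03 against 9.52, 9.33, 9.61 and 9.26 (log2 difference 1.20, standard error 0.21, adjusted p = 0.00231 from limma). Hnrnpa1, known to oppose Srsf1 in the choice of splice sites, was at 13.51, 13.89 and 13.47 against 12.82, 12.88, 12.27 and 12.47 (log2 difference 1.01, standard error 0.20, adjusted p = 0.00408 from limma). Neither gene overlapped between the groups, so that both sides of the known Srsf1 and Hnrnpa1 pair were higher in the NE tumors. Hnrnpf, whose protein is close to that of Hnrnph1, had a difference of −0.05 (adjusted p = 0.812 from limma), with 10.96 to 11.24 in OPT-tm and 10.98 to 11.37 in T30. Its levels overlapped between the tumors, unlike those of Hnrnph1. The other 7 hnRNPs that rose did so by 0.58 (Hnrnpm) to 0.87 (Hnrnph2).

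**Figure D2:**
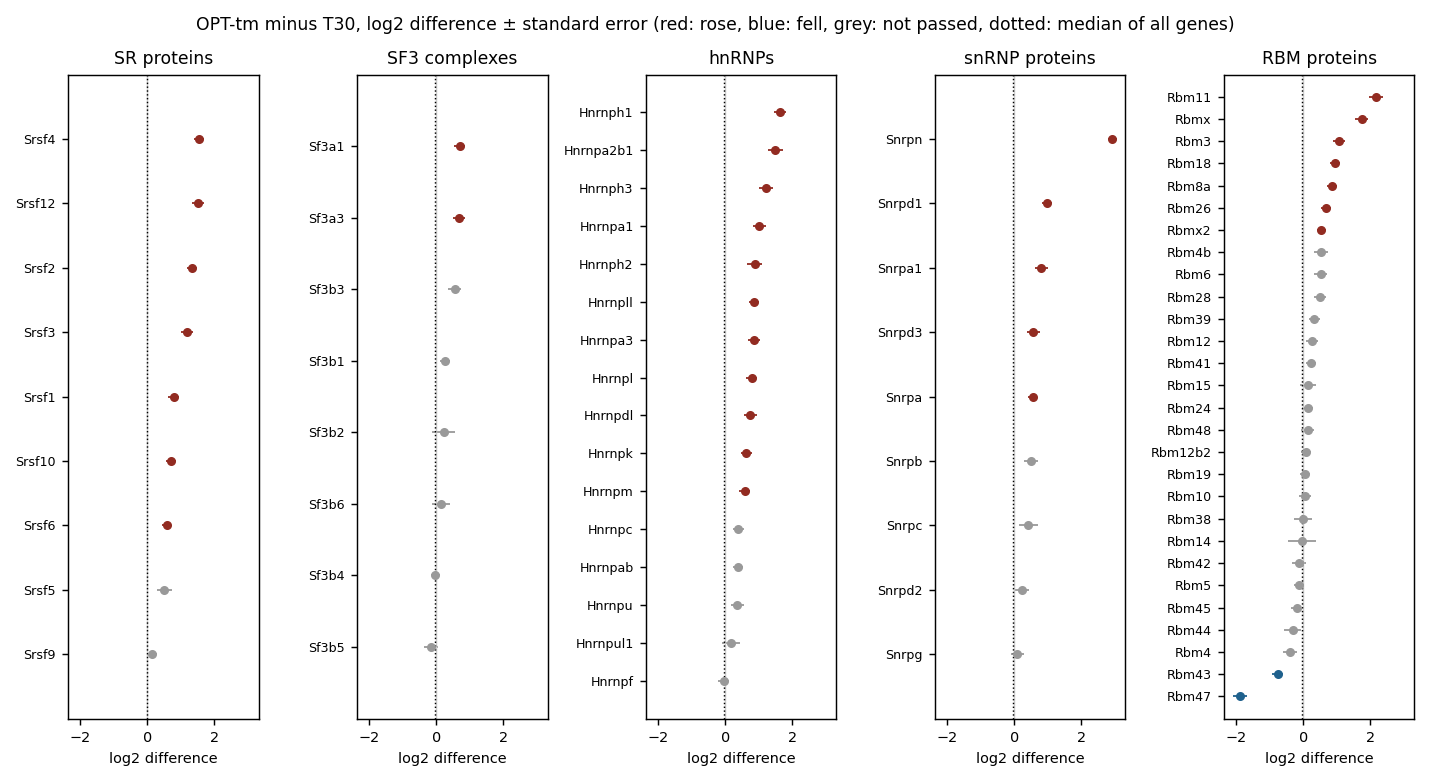
Log2 difference of OPT-tm minus T30 (horizontal axis) for each of the 70 members by family, with the standard error from limma as a bar, red for members that rose, blue for those that fell and grey for the rest. The dotted line is the median of all genes (−0.03), and the members reach from −1.89 (Rbm47) to 2.92 (Snrpn).

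Among the snRNP proteins 5 of 9 rose, with a median of 0.55. Snrpn had the largest difference of the 70 members. It encodes SmN, a close copy of the Sm protein of Snrpb that stands in for it in brain, from an imprinted locus whose transcript also encodes Snurf. It was at 14.60, 14.84 and 14.82 in OPT-tm and at 11.83, 11.86, 11.87 and 11.77 in T30, with no overlap and little spread in either group. The log2 difference was 2.92 (standard error 0.14, adjusted p = 2.67e-06 from limma). Its other detected probe rose by 1.77. Snrpb itself was at 14.24, 14.00 and 13.45 against 13.42, 13.48, 13.28 and 13.41, a difference of 0.50 that did not pass (adjusted p = 0.0728 from limma). OPT-tm mouse OPT18_1335 lay inside the T30 range for Snrpb, and without this mouse the gene passed.

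The Sm core member Snrpd1 was at 13.62, 13.85 and 13.79 in OPT-tm and at 12.72, 12.77, 12.63 and 13.01 in T30 (log2 difference 0.97, standard error 0.15, adjusted p = 0.00120 from limma). Snrpa1, the U2 particle protein that binds its small RNA, was at 12.42, 12.69 and 12.10 against 11.78, 11.66, 11.31 and 11.68 (log2 difference 0.80, standard error 0.19, adjusted p = 0.00965 from limma). Snrpa, of the U1 particle, rose by 0.55. Snrpd3 rose by 0.57 (adjusted p = 0.0322 from limma), a call that was lost in 8 of 16 alternatives. Snrpg, another Sm core member, was at 12.84 to 13.24 against 12.68 to 13.32, a difference of 0.09 (adjusted p = 0.741 from limma). The members of 1 Sm ring thus ranged from 0.09 to 0.97 when Snrpn is left aside.

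The RBM proteins were the most divided family, with 7 that rose (25%), 2 that fell (7.14%) and 19 that did not pass. Their median was 0.14, and of all genes 21.4% rose and 21.7% fell. Rbm11, a tissue-restricted splicing regulator known from brain and testis, was likewise above background in each OPT-tm prostate (10.45, 9.74 and 9.59) but in no T30 prostate (7.85, 7.82, 7.70 and 7.65). It was at least 2.25-fold higher (fitted log2 difference 2.17, standard error 0.22, adjusted p = 0.000118 from limma). Rbmx, the X-linked protein also called hnRNP G, was at 12.14, 12.72 and 12.23 against 10.56, 10.94, 10.58 and 10.41. The gap between its groups was over 1 log2 unit, and the difference was 1.74 (standard error 0.20, adjusted p = 0.000226 from limma).

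Rbm3, induced by cold and known to favor translation, was at 15.09, 15.34 and 14.61 against 14.00, 13.98, 13.84 and 13.97 (log2 difference 1.07, standard error 0.19, adjusted p = 0.00227 from limma). Its 3 detected probes ran from 0.02 to 1.07. Those at 0.25 and 0.02 did not pass, so both the call and its size depend on the probe. Rbm18 rose by 0.94, with 12.44 to 12.71 in OPT-tm and 11.54 to 11.77 in T30. Rbm8a, the exon junction protein Y14, rose by 0.85, and Rbm26 by 0.67. Rbmx2 passed at 0.54, but it was detected on 1 of 29 arrays, of OPT-tm, and entered the test only through that array. In contrast, Rbm47, an RNA-binding protein of epithelia known as a cofactor of mRNA editing, was at 11.47, 11.33 and 11.60 in OPT-tm and at 13.65, 12.88, 13.39 and 13.51 in T30. Its log2 difference was −1.89 (standard error 0.20, adjusted p = 0.000171 from limma), so that it fell, and all 4 of its detected probes fell, by values from −2.00 to −1.03. Rbm43 was at 10.91, 10.79 and 10.95 against 11.82, 11.43, 11.49 and 11.84 (log2 difference −0.76, standard error 0.16, adjusted p = 0.00572 from limma). Rbm38, a target of p53 that binds mRNA, had a difference of 0.00 (adjusted p = 0.995 from limma). Its T30 signals spread from 9.06 to 10.14 around those of OPT-tm.

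Of the 30 members with several detected probes, all probes were called in 1 direction for 12, some for 8 (Hnrnpa2b1, Hnrnpc, Hnrnpm, Hnrnpul1, Rbm3, Sf3b4, Snrpa and Srsf10) and none for 10, and no member had probes of opposite sign at a size of 0.5 or more. Rbm4 and Rbm4b, Rbmx and Rbmxl1, and Snrpb and Snrpn are closely similar pairs, and cross-hybridization between them was not tested.

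**Figure D3:**
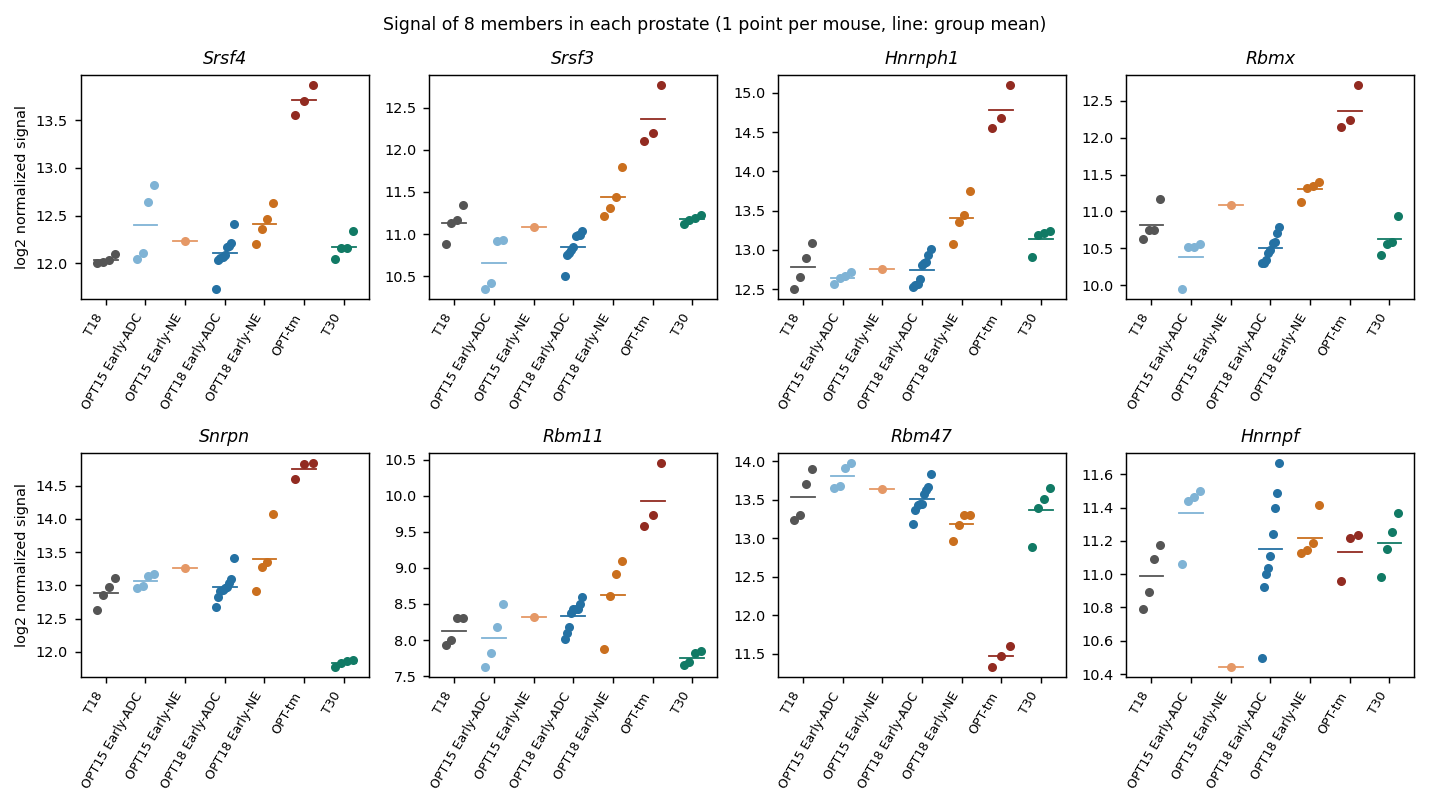
Log2 normalized signal (vertical axis, scaled for each gene) of 8 members in every prostate, with 1 point per mouse, a line at the group mean and points of a group spread sideways in ascending order. The OPT-tm prostates lie apart from all others for Srsf4, Srsf3, Hnrnph1, Rbmx, Snrpn and Rbm11 above and for Rbm47 below, and inside the range of the others for Hnrnpf.

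Genes of the same process outside the 5 families were read from lists, beside the 21.4% of all genes that rose and 21.7% that fell. Of 42 other genes of the spliceosome and exon junction, 17 rose and none fell in OPT-tm against T30, with a median of 0.46. They were led by Rnps1, a splicing activator of the exon junction (1.43, standard error 0.17, adjusted p = 0.000266 from limma), and Lsm2, of the ring on the U6 RNA (1.08). Of 8 kinases, partners and importers of SR proteins, 2 rose, the kinases Srpk2 (0.88) and Srpk1 (0.64), with a median of 0.10. Of 21 other regulators of alternative splicing, 9 rose and 3 fell. Rbfox1, a regulator of neuronal exons, was at least 39.4-fold higher and detected in no T30 prostate, and Celf4, also neuronal, rose by 3.03. Esrp1, which sets epithelial exon choice, fell by 2.72 on the log2 scale and Elavl1, which stabilizes mRNAs, by 2.06. Ptbp1, which represses neuronal exons, had a difference of 0.21 (adjusted p = 0.316 from limma).

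Markers of the cells that the prostates could hold moved in the same comparison. Of 14 cell division genes 13 rose (median 1.56), and their summed signal was 143512 to 152514 in OPT-tm, 33023 to 63727 in T30, 47306 to 76364 in OPT18 Early-NE and 34488 to 39300 in OPT18 Early-ADC. Of 11 NE genes 10 rose (median 4.06), with summed signals of 125101 to 137450 in OPT-tm, 2937 to 3371 in T30, 15992 to 44901 in OPT18 Early-NE and 4540 to 11489 in OPT18 Early-ADC. Among the NE genes Chgb, Ddc, Insm1, Scg2, Scg3, Scg5 and Foxa2 were detected on no T30 array. Of 9 luminal genes 5 fell and 1 rose (median −0.90), with 68722 to 108853 in OPT-tm and 140914 to 189608 in T30, and Pbsn, the gene of probasin, was detected on no OPT-tm array. All 5 basal genes fell (1611 to 2423 against 11796 to 45524), as did 7 of 8 of smooth muscle (28280 to 36235 against 158396 to 193028), 6 of 8 of fibroblasts (19137 to 45907 against 62964 to 126721), 6 of 7 of leukocytes (8028 to 15868 against 18763 to 31330) and 1 of 6 of skeletal muscle (1842 to 3429 against 5984 to 31790). None of 6 of endothelium passed (5230 to 9787 against 7488 to 23270). All 7 of seminal vesicle fell (1911 to 3224 against 3458 to 401533). Several of these markers, among them Krt5, Krt14, Trp63, Cnn1, Cd3e, Ckm and Svs2, were detected on no OPT-tm array. Cnn1 and Cd3e were the only genes of their lists undetected in OPT-tm, and Ckm was detected on no T30 array either. The part of these cells in the differences of the splicing factors was not tested. Without T30 mouse T30_6771, the prostate with the lowest summed seminal vesicle signal of its group, 33 members rose and 2 fell.

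OPT-tm was next compared with the 13 OPT18 prostates without palpable tumor, of the same genotype and age. It shares the OPT-tm arrays with the comparison above, so its values stand beside those and do not add to them. Here 44 members rose (62.9%) and 2 fell, against 32.2% of all genes that rose and 32.3% that fell. At least 2-fold, 13 rose and 1 fell, against backgrounds of 12.3% and 13.6%. With array medians set equal 29 rose, all among the 44, or 41.4% of the members against 27.2% of all genes. The median was 0.51, as against T30. All 9 snRNP proteins rose, 7 of 9 SR proteins, 13 of 16 hnRNPs, 3 of 8 genes of the SF3 complexes and 12 of 28 RBM proteins, while Rbm47 and Rbm43 fell.

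Hnrnph1 had the largest difference, 1.83 (standard error 0.21, adjusted p = 5.76e-07 from limma), with 14.56 to 15.10 in OPT-tm and 12.52 to 13.76 in OPT18. Snrpn followed with 1.64 (standard error 0.20, adjusted p = 8.33e-07 from limma), a smaller difference than the 2.92 against T30. Rbmx rose by 1.62, Srsf4 by 1.51, Rbm11 by 1.50 and Hnrnpa2b1 by 1.44. The OPT-tm range lay wholly above the 13 OPT18 prostates for 26 members (37.1%, against 20.7% of all genes) and wholly below for Rbm47 and Rbm43 (23.1% of all genes). For Rbm47 the log2 difference was −1.94 (standard error 0.14, adjusted p = 1.09e-09 from limma) and for Rbm43 −0.75. Snrpb (0.55), Srsf9 (0.28) and Snrpg (0.42) passed here with overlapping ranges. With array medians set equal these 3 calls and those of Sf3a3, Hnrnpa1, Snrpd3 and Rbm3 were lost, as were those of Srsf9 and Snrpg without mouse OPT18_1333 and of Hnrnpa1 and Snrpg without mouse OPT18_1340. Hnrnpf (−0.04), Sf3b4 (0.05) and Rbm38 (0.09) did not pass.

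T30 was compared with T18 to ask what differed between adenocarcinoma and the younger TRAMP prostate. None of the 70 members rose and 1 fell, against 0.492% and 1.75% of all genes (limma). At an unadjusted p under 0.05 there were 9 of 70 members and 1896 of 10768 genes. The member that fell was Snrpn, which was at 13.11, 12.63, 12.86 and 12.97 in T18 and at 11.77 to 11.87 in T30. All 4 adenocarcinomas lay below all 4 younger prostates, with a log2 difference of −1.06 (standard error 0.13, adjusted p = 0.00299 from limma). With array medians set equal this call was lost, while the difference was −1.10. With all 29 arrays in one fit 2 members rose and 2 fell. The median of the members was 0.05.

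The 13 OPT18 prostates were compared with T18 for the genotype at 18 wks without palpable tumor, and they share T18 with the comparison before. No member rose or fell (limma), against 0.0186% and 0.0279% of all genes, and 4 members had an unadjusted p under 0.05, against 726 of all genes. The median of the members was 0.06 and their differences ran from −0.39 to 0.35. Snrpn had 0.22 (adjusted p = 0.823 from limma) and Srsf4 0.16 (adjusted p = 0.809 from limma).

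The step from no palpable tumor to tumor was then set side by side for both genotypes, in one fit of the 4 groups added after these values had been seen. The difference between OPT-tm and OPT18 exceeded that between T30 and T18 for 31 members (44.3%) and fell short of it for 2, against 22.3% of all genes in either direction (limma). Age differed between T30 and T18 and not between OPT-tm and OPT18. The tumors were NE in OPT-tm and adenocarcinoma in T30. Age, genotype and histotype thus cannot be told apart here. The 31 members were 6 SR proteins, 3 genes of the SF3 complexes, 8 hnRNPs, 5 snRNP proteins and 9 RBM proteins. Snrpn stood out with opposite steps, 1.64 in OPN-/-TRAMP and −1.06 in TRAMP mice. Srsf10 had 0.94 and 0.56.

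**Figure D4:**
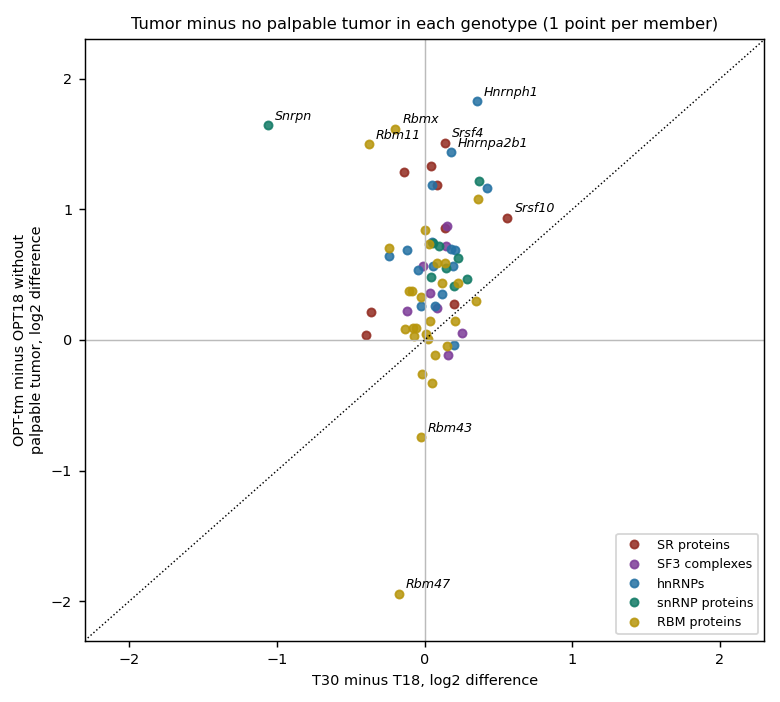
Log2 difference of OPT-tm minus OPT18 without palpable tumor (vertical axis) against T30 minus T18 (horizontal axis), 1 point per member colored by family, with a dotted line where both are equal. The members spread along the vertical axis between −1.94 (Rbm47) and 1.83 (Hnrnph1), and along the horizontal axis between −1.06 (Snrpn) and 0.56 (Srsf10).

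Among the OPT18 prostates without palpable tumor, the mean of the 4 Early-NE was above that of the 9 Early-ADC for 45 of 70 members, with a median difference of 0.12 against −0.05 over all genes. With array medians set equal these were −0.02 and −0.10. The ranges of the 2 classes were apart for 5 members, all higher in Early-NE, against 4.85% of all genes that were apart and higher and 2.59% apart and lower. These were 7.14% of the members. The means of Early-NE lay between those of Early-ADC and OPT-tm for 47 members, or 67.1%, against 68.1% of all genes. By family the median difference was 0.28 for the SR proteins, 0.24 for the snRNP proteins, 0.19 for the hnRNPs, and −0.04 for the SF3 complexes and the RBM proteins.

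Rbmx was at 11.32, 11.41, 11.12 and 11.35 in OPT18 Early-NE and between 10.30 and 10.78 (median 10.48) in Early-ADC, a difference of means of 0.80. Hnrnph1 was at 13.45, 13.76, 13.07 and 13.36 against 12.52 to 13.01 (median 12.81), a difference of 0.66. Srsf3 was at 11.21, 11.80, 11.44 and 11.31 against 10.51 to 11.03 (median 10.85), a difference of 0.59. These 3 genes were also well above both classes in OPT-tm, and mouse OPT18_1336 was the highest Early-NE prostate for each. Srsf12 (difference 0.37, not detected in Early-ADC and detected in 1 Early-NE prostate) and Snrpa (0.24) were the other members whose ranges were apart.

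Snrpn, whose Early-NE prostates were at 13.28, 13.35, 12.91 and 14.07, differed by 0.42 with overlapping ranges, and mouse OPT18_1339 alone approached the NE tumors. Rbm11 was at 8.61, 9.09, 8.91 and 7.87 in Early-NE and at 8.02 to 8.59 in Early-ADC. It was detected in 2 of 4 and 2 of 9 of them. The lowest differences were those of Rbm4 (−0.37) and Rbm47, which was at 13.17, 13.30, 12.96 and 13.31 against 13.18 to 13.83 (−0.32). Rbm47 thus stayed near its Early-ADC level in the Early-NE prostates, far above the OPT-tm values.

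The single OPT15 Early-NE prostate, mouse OPT15_2957, was above all 4 OPT15 Early-ADC prostates for 17 members (24.3%, against 25.8% of all genes) and below all of them for 11 (15.7%, against 25.2%), with a median difference of 0.06. Rbmx was at 11.08 in it and at 9.95 to 10.56 in the others, Srsf3 at 11.08 against 10.35 to 10.93, and Hnrnph1 at 12.76 against 12.57 to 12.72. Snrpa was at 12.55 against 12.29 to 12.51. Srsf12, at 7.92, was inside their range, while the other 4 of the 5 members with ranges apart at 18 wks were above it. Hnrnph1 and Snrpa were so only narrowly. The study clustered the prostates of both ages on genes that differed at least 2-fold between OPT-tm and T30. Rbmx, Hnrnph1, Srsf3 and Srsf12 did so here, so their levels may have helped to set the classes. This count is thus no separate support. Between OPT15 and OPT18 Early-ADC the median difference was −0.04 with 31 members above 0 and 39 below, and 1 member, Hnrnpa1 (−0.53), exceeded 0.5 in size.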

How the data were processed

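For 29 prostates the authors deposited BeadStudio signal intensities with detection p-values, not normalized, and separately the log2 values they obtained by robust spline normalization in lumi, whose version is not given in the sources used here. From the signals, log2 values with no background correction were quantile normalized over all arrays with limma 3.58.1 in R 4.3.3. Of 25697 probes 23978 had 1 gene symbol and 1719 none. A probe had to be detected (p under 0.01) on 1 array or more, and each gene was represented by its most widely detected probe (10768 genes). Groups came from the labels, which give 13 OPT18 prostates without palpable tumor. Comparisons were fitted with limma on their own groups with Benjamini-Hochberg adjustment over all genes, and "rose" and "fell" mean an adjusted p under 0.05, while a gene that did not pass may still differ. The labels do not name litters, so p-values measure the spread between these mice. Where one group had a gene on none of its arrays, a lower bound of the fold is given: the brighter mean was divided by the dimmer group's mean, with each dim array set to its lowest detected signal if that was higher. Named members were, in each family, the 4 largest rises and 3 largest falls of OPT-tm against T30 with no overlap and the smallest difference not passed, the 3 largest of each other comparison, a short fixed list, and up to 2 rises and 2 falls of other lists. Srsf10, Srsf6, Rbm8a, Rbm26, Rbmx2, Rbm4, Snrpa, Hnrnpm and Hnrnph2 were named after their values were seen. The members, lists and rules were chosen with earlier results of these data known. The fit was tested on simulated data. Alternatives are given in the closing section. Python 3.11.15 with matplotlib 3.10.9 drew the plots.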

Additional observations from a re-analysis of the deposited data

Results flagged for a closer look

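In 140 groups of 4 to 9 prostates of the named members, 8 held a value far from the rest of its group, where chance alone sets about 1 in 20 apart. Among the Early-ADC prostates of OPT18, mouse OPT18_450 was low for Srsf12 (7.72, others 7.93 to 8.08) and Rbm18 (11.58, others 11.67 to 11.75), and mouse OPT18_1328 was high for Sf3b1 (8.52, others 7.99 to 8.25). Among those of OPT15, mouse OPT15_2956 was low for Hnrnpf (11.06, others 11.44 to 11.50) and mouse OPT15_3022 for Rbmx (9.95, others 10.51 to 10.56). In T30, mouse T30_6768 was low for Hnrnph1 (12.92, others 13.19 to 13.24) and mouse T30_6769 for Sf3b1 (7.88, others 8.20 to 8.23). Srsf12 was above background in none of these mice and Sf3b1 in 1. In T18, mouse T18_1545 was high for Srsf1 (14.78, others 14.46 to 14.48).

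The step from no palpable tumor to tumor differed between the genotypes for 20 of 28 named members, by limma's test of the difference itself. Of all genes, 22.3% were called higher and 22.3% lower. Many of these members were named for a large difference of OPT-tm against T30 on the same arrays. The count was thus partly set by that choice. The OPN-/-TRAMP step exceeded the TRAMP step on the log2 scale for Snrpn by 2.70, Rbm11 by 1.88, Rbmx by 1.82, Hnrnph1 by 1.48, Srsf12 by 1.43, Srsf4 by 1.37, Srsf3 by 1.29, Hnrnpa2b1 by 1.26, Hnrnph3 by 1.14 and Srsf2 by 1.10. It did so by smaller amounts for Rbm3 (0.94), Snrpd1 (0.84), Rbm18 (0.84), Srsf1 (0.72), Sf3a1 (0.72), Snrpa1 (0.69), Sf3a3 (0.58) and Snrpd3 (0.44). For Rbm47 (−1.77) and Rbm43 (−0.72) it was lower. The ages and histotypes of the tumor groups differed too, so genotype cannot be told apart from them.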

How the results depend on the processing

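With array medians set equal, OPT-tm against T30 had 19 members that rose and 1 that fell with a median of 0.66, OPT-tm against OPT18 had 29 that rose, T30 against T18 had 0 that fell, and Early-NE had 1 member apart and higher than Early-ADC with a median of −0.015. This scaling put the median of all genes at −0.10 in Early-NE against Early-ADC. The cause was not tested. With no filter on detection the median was 0.37 in OPT-tm against T30 and 0.38 against OPT18, where undetected genes also enter. With all 29 arrays in one fit, T30 against T18 had 2 members that rose and 2 that fell. Over the counts and medians, 245 alternatives stayed near the main value and 17 moved, and this section lists mainly those that moved. With the authors' values and with neqc background correction, 31 members rose in OPT-tm against T30, all among the main 32. Chips are named next only where the median moved by more than the spread between mice. Within chips the median was 0.33 on chip 1 and 0.63 on chip 2 for OPT-tm against T30, 0.16 on chip 1 and 0.17 on chip 4 for T30 against T18, 0.60 on chip 3 for OPT-tm against OPT18, and −0.050 on chip 1 for OPT18 against T18. When chip was fitted as a block, 27 members rose against T30 and 46 against OPT18. Leaving out each OPT-tm and T30 mouse in turn gave 31 to 33 against T30. Against OPT18 only the OPT-tm mice were left out in turn, which gave 41 to 42.

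Direction turned for members near 0 that did not pass in either setting. In OPT-tm against T30, Rbm38 was at −0.023 in the authors' values and ran from −0.21 to 0.15 with single mice left out. Sf3b4 was at 0.018 with array medians equal and ran from −0.077 to 0.049, Hnrnpf was at 0.14 and ran from −0.12 to 0.037, and Snrpg ran from −0.021 to 0.22. In OPT-tm against OPT18, Hnrnpf was at 0.037 with array medians equal and 0.0022 with the chip as a block and ran from −0.086 to 0.054, and Rbm38 ran from −0.055 to 0.17. No paired analysis was possible because the groups share no mouse numbers, and arrays were matched by chip only, as given above.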
